A study of Mus musculus with 12 samples.

Results

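The 5 genes described here encode the receptors through which the cytokine Mif is known to act in mouse: Cd74, Cd44, Cxcr2, Cxcr4 and Ackr3. They were taken by name from the 32285 genes in the single-cell matrices of SCC35 tumours, and all 5 were found there. Their raw UMIs (unique molecular identifiers, each standing for 1 captured RNA molecule) were summed per hashtag and per cell class, in all 6 libraries.

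Mif (macrophage migration inhibitory factor) is a secreted cytokine that many tumour and immune cells release. It binds Cd74, the invariant chain that otherwise escorts MHC class II molecules through the cell, and Cd74 at the cell surface signals together with Cd44, a receptor for hyaluronan with a signalling tail. Mif also engages chemokine receptors: Cxcr2, which guides neutrophils towards Cxcl1 and Cxcl2; Cxcr4, which guides leukocytes towards Cxcl12; and Ackr3, an atypical receptor that takes up Cxcl12 and signals through arrestins in place of G proteins. In tumours the first of these partners is best known from antigen-presenting cells, where Cd74 is among the most abundant transcripts.

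The series, by its title, follows rejection of melanoma over time. Live cells of dissociated tumours were hashed with antibodies and profiled with 10x 5′ chemistry. The control group is the SCC35 lines labelled Mif KO control 15 and 18, the KO group the lines labelled Mif KO 19 and 24, and a hashtag is labelled with its line, 1 of the days 0, 6, 10 and 16, and a letter. After 2 hashtags with hardly any counts were left out, there were 21 control hashtags, 21 KO hashtags and 3 hashtags of a WT line that the labels put in no group. What day 0 material is, the host strain, and whether a line is a single clone are not stated by the labels. Line is nested in group, so a p-value over hashtags measures the spread between hashtags of 2 control and 2 KO lines, and 4 of the 6 libraries hold 1 line each. Unless stated, levels are for days 6 to 16, as CPM (UMIs of the gene over all UMIs of the class, times 1000000, without further scaling), over hashtags with at least 20 cells of the class. The edgeR fits took such hashtags of every day, so in line cells they also hold the 3 control and 4 KO hashtags of day 0.

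The libraries had 20935 to 35793 barcodes and 151385933 to 239699029 UMIs, with a median of 3072 to 9122 UMIs in passing cells, lowest in the library of line 24. Of the barcode sequences, 9.92% occurred in more than 1 library. The 45 hashtags held 100557 single cells, of which 95141 fell into a class gated on markers that include none of the receptors. Line cells, which have no Ptprc (the pan-leukocyte gene Cd45) and fewer than 3 markers of every host class, numbered 69745, followed by 11531 macrophages, 4083 T cells and 3198 monocytes. A Ptprc UMI was seen in 48.5% of the gated macrophages, 65.1% of the T cells and 54.4% of the monocytes. Leukocytes with few UMIs can therefore fall into the line class, and their number there is not known. Only 1 line cell carried 3 or more melanocytic markers, so the class is called by its gate. The labels held for the targeted gene: Mif in line cells, day 0 included, was 2439 CPM ± 410 (SD, n = 11) in line 15, 2154 ± 274 (SD, n = 10) in line 18, 114 ± 96 (SD, n = 11) in line 19 and 476 ± 198 (SD, n = 10) in line 24. The gates for endothelial cells and mature dendritic cells took in line cells (10.8% and 14.7% of their cells came from day 0 hashtags, against 8.28% in the line class), and were also read with Pecam1 or Cdh5, or with Ccr7, required. Of those narrowed classes 6.76% and 1.17% of cells were from day 0.

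In the GENCODE M21 annotation of GRCm38, chromosome 1 holds Cxcr2 (74153989 to 74161246, plus strand), Cxcr4 (128588199 to 128592293, minus strand) and Ackr3 (90203980 to 90216751, plus strand). The promoters of the last pair are shown because these genes share the ligand Cxcl12 and had opposite patterns over the cell classes. Each line gives, from RefSeq on GRCm38.p6, the 250 bases before the gene's start on the gene's own strand, at chr1:128592300-128592549 for Cxcr4 and chr1:90203730-90203979 for Ackr3, with TATAAA in capitals.
Cxcr4: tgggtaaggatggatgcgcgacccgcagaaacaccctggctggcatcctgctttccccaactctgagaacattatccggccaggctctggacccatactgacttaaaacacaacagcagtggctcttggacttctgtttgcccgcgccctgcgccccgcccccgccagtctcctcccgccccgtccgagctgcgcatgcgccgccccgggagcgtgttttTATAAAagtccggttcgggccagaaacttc
Ackr3: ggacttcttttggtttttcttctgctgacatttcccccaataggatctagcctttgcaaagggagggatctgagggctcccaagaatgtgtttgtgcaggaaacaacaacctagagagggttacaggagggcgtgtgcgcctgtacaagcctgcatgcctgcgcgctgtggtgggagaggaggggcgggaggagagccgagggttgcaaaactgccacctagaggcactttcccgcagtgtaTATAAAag
TATAAA begins 30 bases before the start in Cxcr4 and 8 bases before it in Ackr3, and on either strand it occurs in 12.4% of the 32851 promoter windows of this length. The GC box letters GGGCGG, read on either strand, occur 3 times in the Cxcr4 window and 1 time in the Ackr3 window, and in 32.7% of all windows. The windows of Cd44 and Cxcr2 hold no TATAAA. These matches describe the letters and were not set against the expression values.

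Each receptor had its own distribution over the cells of the tumours. Macrophages were 12.3% of the cells and held 50.9% of all Cd74 UMIs and 53.9% of all Cxcr4 UMIs. Line cells were 67.4% of the cells and held 79.5% of the Cd44 UMIs and 83.7% of the Ackr3 UMIs. Neutrophils were 0.406% of the cells and held 75 of the 96 Cxcr2 UMIs. Fibroblasts had the highest Ackr3 level and next to no Cxcr4.

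**Figure D1:**
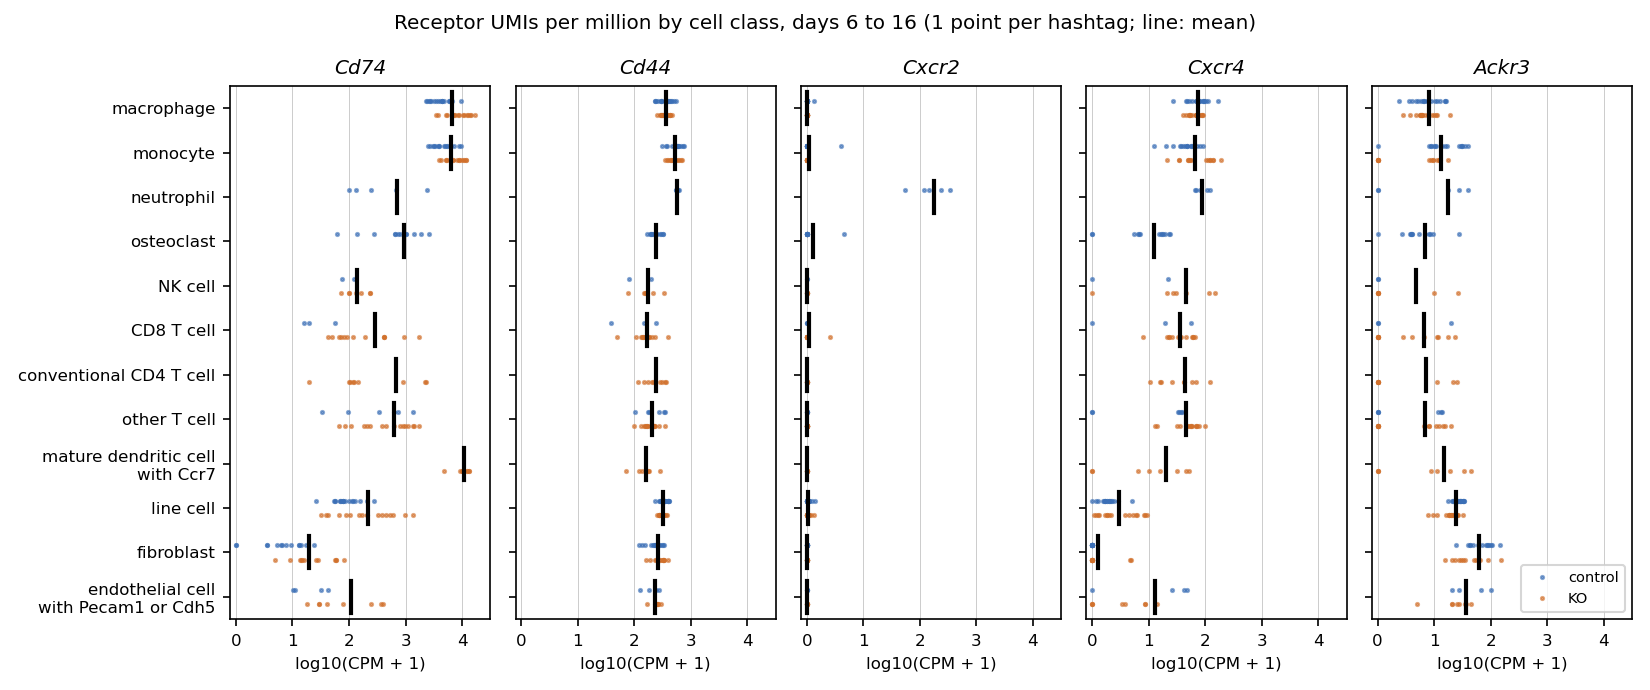
Levels of the 5 receptors in 12 cell classes at days 6 to 16, as log10(CPM + 1) on the horizontal axes. Each point is a hashtag with at least 20 cells of the class (blue control, orange KO) and the black line is the mean; Cd74 is spread from 18.6 CPM in fibroblasts to 10610 CPM in mature dendritic cells with Ccr7, Cd44 stays between 163 and 569 CPM, and Cxcr2 stands out in neutrophils.

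Cd74, the binding chain of the receptor (chromosome 18, 60803848 to 60812652, plus strand), was highest in antigen-presenting classes. With the cells of all lines pooled it was highest in type 2 conventional dendritic cells, at 27330 CPM in 93 cells pooled (95% Poisson interval 26800 to 27900, counting error only), then in type 1 conventional dendritic cells at 20690 CPM in 134 cells (20300 to 21000). By line, type 2 cells had 42020, 16190, 26730 and 25540 CPM (lines 15, 18, 19 and 24, from 16 to 35 cells each) and type 1 cells 26620, 23200, 19210 and 17890 CPM (17 to 55 cells), so the order was the opposite in line 18. The pooled level was 10750 CPM in 48 B cells (8673 to 15480 by line) and 7813 CPM in 56 plasmacytoid dendritic cells (6372 to 9703 by line). Mature dendritic cells with a Ccr7 UMI had 10610 CPM ± 2844 (SD, n = 8 KO hashtags). Macrophages had 6677 CPM ± 3832 (SD, n = 35) and monocytes 6318 ± 2768 (SD, n = 31), and these neighbours did not differ beyond their spread (log2 difference -0.01, adjusted p = 1.0 in a paired permutation test over 31 hashtags, 2-sided, adjusted over all neighbouring pairs of the 5 receptors).

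Cd74 was lower in the other classes. Osteoclasts, found in numbers only in control tumours, had 932 CPM ± 696 (SD, n = 13), and T cells had 517 ± 582 (SD, n = 30). T cells with no UMI of a macrophage marker, a class chosen after seeing the data, had 269 ± 280 (SD, n = 29). Line cells had 214 CPM ± 277 (SD, n = 35). They lay above NK cells, at 137 ± 61.9 (SD, n = 9), in 9 of 9 shared hashtags (log2 difference 0.72, adjusted p = 0.0249, exact paired permutation test). Of those hashtags 7 were KO and 2 control. Over all hashtags the order of the medians was the opposite, at 104 CPM in line cells and 122 CPM in NK cells. The paired difference did not pass without cells of high UMI count (0.50, adjusted p = 0.29) or with the other hashtag call (0.40, adjusted p = 0.641). Fibroblasts had the least, at 18.6 CPM ± 21.0 (SD, n = 26). At 1000 UMIs per cell, Cd74 was seen in 69.5% ± 19.9 (SD, n = 35) of macrophages, whose median depth was 2640 UMIs. The share was 2.72% ± 4.31 (SD, n = 26) in fibroblasts of median depth 8181 UMIs. Without thinning the pooled shares were 75.7% and 11.2%.

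In macrophages Cd74 was higher in the tumours of both KO lines. Control hashtags ran from 2343 over a median of 4179 to 9453 CPM, and KO hashtags from 3502 over 8576 to 17060 CPM. The groups overlapped, and line 24 was the higher of the KO lines, at 11650 CPM ± 3907 (SD, n = 8) against 6807 ± 2323 (SD, n = 9) in line 19, 4773 ± 1240 (SD, n = 9) in line 15 and 4030 ± 2322 (SD, n = 9) in line 18. The log2 KO/control ratio was 1.04 (SE 0.18, adjusted p = 4.27e-05 by edgeR), with day as a further term. Of the 3 receptors tested in macrophages Cd74 alone passed, and 35.7% of all 6987 genes tested there passed in either direction. The difference kept its sign whichever line was left out, between 0.67 without line 24 and 1.37 without line 19. With library as a term it was 0.85 (adjusted p = 0.0652), and with 1 sum per line 1.19 (adjusted p = 0.116). Within the libraries that mix lines, macrophages of line 19 had 4585 CPM ± 1716 (SD, n = 3) against 3759 ± 868 (SD, n = 3) in line 15 and 3644 ± 610 (SD, n = 3) in line 18, while line 24 had 11330 ± 3796 (SD, n = 3). The 7 T-cell markers in these macrophages, none at 0 in either group, had 0.124% to 0.544% of their T-cell level in controls and 0.894% to 1.35% in KO tumours. Their sum had a median of 3.69 CPM (0 to 26.1) in controls, 8.23 CPM (0 to 38.5) in line 19 and 49.9 CPM (23.4 to 89.4) in line 24, and their part in the Cd74 difference was not tested.

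Macrophage Cd74 also rose with time. Control means were 3525 CPM ± 1301 (SD, n = 6) at day 6 and 4853 ± 1598 (SD, n = 6) at day 16, and KO means were 5617 ± 1494 (SD, n = 5) and 10980 ± 4877 (SD, n = 6). Day 16 exceeded day 6 by 0.72 on the log2 scale (SE 0.23, adjusted p = 0.0373 by edgeR), in a fit where 9.88% of genes passed in either direction. The KO difference was 1.59-fold at day 6 and 2.26-fold at day 16, and the test of that change did not pass (log2 difference 0.58, SE 0.45, adjusted p = 0.656). The call for day was lost without line 15 (0.86, adjusted p = 0.0927), line 19 (0.68, adjusted p = 0.074) or line 24 (0.45, adjusted p = 0.226).

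**Figure D2:**
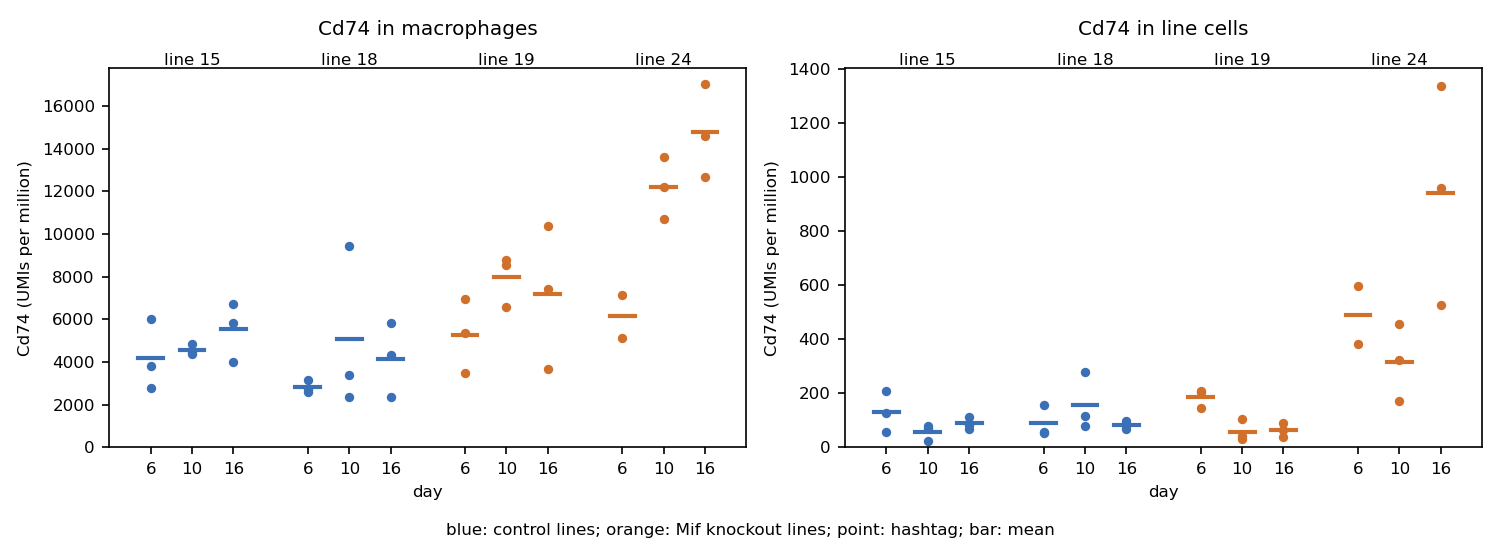
Cd74 in macrophages (left) and line cells (right), in CPM on axes that start at 0, by line and day; each point is a hashtag and each bar a mean, blue for control and orange for KO lines. Macrophage means are 6807 and 11650 CPM in lines 19 and 24 against 4773 and 4030 CPM in lines 15 and 18, and in line cells line 24 reaches 1338 CPM.

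Monocytes showed the same order with a smaller difference. Cd74 ran from 2543 over 4369 to 9712 CPM in controls (n = 16) and from 3869 over 8012 to 11620 CPM in KO hashtags (n = 15). The log2 KO/control ratio was 0.67 (SE 0.19, adjusted p = 0.0114 by edgeR), where 20.3% of genes passed. At day 6 the KO and control means were level, at 5669 CPM ± 1738 (SD, n = 5) and 5697 ± 2407 (SD, n = 5). The call was lost without line 18 (0.50, adjusted p = 0.129), without line 24 (0.40, adjusted p = 0.424) and in 8 of the other settings listed in the closing section, with values from 0.43 to 0.84. The 7 T-cell markers, none at 0 in either group, had 0.281% to 1.01% of their T-cell level in control monocytes and 2.15% to 5.62% in KO ones. Their sum had a median of 8.20 CPM (0 to 55.2) in controls, 26.7 CPM (0 to 58.7) in line 19 and 113 CPM (31.0 to 375) in line 24, and their part in the Cd74 difference was not tested.

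In line cells the group difference in Cd74 was that of line 24. Line 24 had 594 CPM ± 379 (SD, n = 8), and lines 15, 18 and 19 had 92.7 ± 52.7, 109 ± 71.1 and 103 ± 69.7 (SD, n = 9 each). The lowest hashtag of line 24, at 172 CPM, lay among the upper values of the other lines. The fit over both lines gave a log2 KO/control ratio of 1.86 (SE 0.39, adjusted p = 0.000158 by edgeR), without line 24 it was 0.20 (adjusted p = 0.648), and with library as a term 0.79 (adjusted p = 0.352). All 4 receptors tested in line cells passed, in a class where 51.2% of 11965 genes did, so that count says little about the receptors.

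The Cd74 UMIs of line cells were unevenly spread. In lines 15 and 18 at days 6 to 16, cells with 20 or more Cd74 UMIs held 67.9% to 81.4% of them, while such cells held 40.0% to 54.3% in line 19 and 30.0% to 46.5% in line 24. In the remaining cells the level at day 16 was 16.3, 27.0, 38.5 and 504 CPM in lines 15, 18, 19 and 24. It was 29.7, 25.2, 85.8 and 329 CPM at day 6, and 13.5, 49.9, 33.9 and 204 CPM at day 10, where line 19 lay below line 18. The 8 macrophage markers had 0.232% to 1.16% of their macrophage level in control line cells and 0.574% to 1.76% in KO line cells, none at 0, while Cd74 had 2.29% and 3.68% of its own. In line 24 those figures were 0.949% to 2.84% for the markers and 5.1% for Cd74. Their summed level ran from 13 to 70.0 CPM in controls and from 8.53 to 161 CPM in KO hashtags, and their part in the Cd74 difference was not tested. With cells that had any macrophage-marker UMI left out, a choice made after seeing the data, the log2 KO/control ratio was 2.43 (SE 0.39, adjusted p = 3.66e-06 by edgeR), in a class where 50.9% of genes passed, and the means were 34.1, 59.2, 75.5 and 437 CPM in lines 15, 18, 19 and 24.

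At day 0, where 90.6% of cells were in the line class, Cd74 in line cells was also highest in line 24. The line 15 hashtags had 3.35 and 1.82 CPM and that of line 18 had 8.86 CPM. Line 19 had 22.2 and 20.4 CPM, line 24 had 86.6 and 77.3 CPM. These are 3 control and 4 KO hashtags from 2 lines a group, and the group difference at day 0 was not tested. Macrophage markers summed to 3.27 to 14.1 CPM in the controls, 5.55 and 6.68 CPM in line 19, and 25.8 and 23.1 CPM in line 24, and their part in the difference was not tested.

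Cd74 did not pass in T cells or CD8 T cells. In T cells the groups overlapped widely, from 18.5 over 231 to 2837 CPM in controls (n = 13) and from 87.9 over 337 to 1495 CPM in KO hashtags (n = 17), with a log2 KO/control ratio of 0.14 (SE 0.48, adjusted p = 0.926 by edgeR). In T cells with no macrophage-marker UMI the ratio was 0.75 (SE 0.49, adjusted p = 0.384 by edgeR). CD8 T cells had 29.9 CPM ± 22.7 (SD, n = 3) in controls, from 5 UMIs, and 353 ± 479 (SD, n = 13) in KO tumours, with an edgeR adjusted p of 0.188 (0.685% of genes passed).

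In the mature dendritic cell gate Cd74 was higher in KO tumours, a call that was lost without line 24 or without line 15. KO hashtags had 3712 CPM ± 3283 (SD, n = 14) and controls 1641 ± 842 (SD, n = 12), with wide overlap, and line 24 had 6493 ± 3707 (SD, n = 5) against 2166 ± 1765 (SD, n = 9) in line 19. The log2 KO/control ratio was 1.37 (SE 0.43, adjusted p = 0.0379 by edgeR, where 10.9% of genes passed). It was 0.14 (adjusted p = 0.9) without line 24 and 1.03 (adjusted p = 0.785) without line 15. Nor did it pass without day 0 (1.29, adjusted p = 0.0872), with the stricter cell filter (1.33, adjusted p = 0.0547) or with the other hashtag call (0.64, adjusted p = 0.314), and with library as a term it was -0.25 (adjusted p = 0.954). Mif in this gate had a log2 KO/control ratio of -2.56 (SE 0.35, adjusted p = 2.04e-05 by edgeR), and the part of line-cell RNA in the Cd74 difference was not tested. With Ccr7 required, no control hashtag had 20 such cells.

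Endothelial cells gave different calls in the wide and the narrowed class. In the wide gate Cd74 was 60.6 CPM ± 171 (SD, n = 12) in controls and 135 ± 111 (SD, n = 15) in KO tumours. The control mean rested on a line 18 day 10 hashtag at 601.5 CPM, without which it was 11.4 ± 11.2 (SD, n = 11). Neither the groups (log2 KO/control ratio 1.73, SE 0.75, adjusted p = 0.114 by edgeR, where 17.1% of genes passed) nor the days passed (-0.58, SE 0.79, adjusted p = 0.888, where 0.854% of genes passed). The ratio passed without line 18 (4.16, adjusted p = 0.00367), without line 19 (2.85, adjusted p = 0.00313), with the stricter cell filter (3.55, adjusted p = 0.000447), with no filter on low counts (1.81, adjusted p = 0.0115) and by DESeq2 (2.13, adjusted p = 0.0263), and without line 15 it was 0.15 (adjusted p = 0.967). Without line 18 the controls were line 15 alone, with 1, 8 and 5 Cd74 UMIs at days 6, 10 and 16. The KO hashtags of those days held 1069, so the gene entered that fit through them and its value is a description. Line 24 had 228 CPM (n = 1) at day 6, 212.5 ± 102 (SD, n = 3) at day 10 and 286 ± 53.1 (SD, n = 2) at day 16. In the narrowed class, chosen after seeing the data, endothelial cells with Pecam1 or Cdh5 had 22.9 CPM ± 16.1 (SD, n = 4) in controls and 150 ± 160 (SD, n = 8) in tumours of line 19, the KO line with enough such cells at days 6 to 16. The control hashtags held 5, 2, 1 and 8 Cd74 UMIs, 16 in all, against 494 in the KO ones, so the gene entered the fit through the KO hashtags. The log2 KO/control ratio was 2.29 (SE 0.49, adjusted p = 0.00614 by edgeR, where 10.1% of genes passed), which at this control depth and with line 19 as the KO line after day 0 is given as a description. Day 16 lay below day 6 there by a log2 difference of -2.78 (SE 0.37). This too is a description, since the fit is the same and the difference rests mainly on line 19. Controls had 1 such hashtag at day 6 and 2 at day 16. The day 6 hashtags of line 19 had 366, 391 and 249 CPM and the later ones 16.8 to 76.2 CPM. Mif in the same class had a log2 KO/control ratio of -2.82 (SE 0.37, adjusted p = 0.00041 by edgeR), close to that of line cells (-3.05, SE 0.32, adjusted p = 6.61e-10), and the part of line-cell RNA in this class was not tested.

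Fibroblasts, too low in Cd74 for the fit, had 8.05 CPM ± 6.68 (SD, n = 14) in controls and 31.0 ± 25.2 (SD, n = 12) in KO tumours, from 35 and 91 UMIs. Line 24 was the higher KO line, at 63.0 ± 11.3 (SD, n = 4) against 15.0 ± 8.04 (SD, n = 8) in line 19. The 8 macrophage markers in fibroblasts summed to a median of 67.6 CPM (31.9 to 177) in controls, with none at 0, and 106 CPM (76.5 to 308) in KO hashtags, with 1 at 0. In line 24 the median sum was 252 CPM (222 to 308), with 2 at 0. Marker by marker the share of the macrophage level was uneven: the median marker had 0.204% in controls, 0.365% in KO tumours and 0.623% in line 24, and the highest had 9.24%, 22.0% and 36.9%. The markers' part in the difference was not tested.

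Cd44, the signalling partner of Cd74 (chromosome 2, 102811141 to 102901665, minus strand), was the most even of the receptors. Neutrophils had 569 CPM ± 29.2 (SD, n = 5) and monocytes 523 ± 116 (SD, n = 31), with no difference beyond their spread in the 5 shared hashtags (log2 difference -0.02, adjusted p = 1.0, exact paired permutation test). Monocytes exceeded macrophages, at 357 ± 80.0 (SD, n = 35), in 30 of 31 hashtags (log2 difference 0.53, adjusted p = 0.00048). Macrophages exceeded line cells, at 321 ± 48.4 (SD, n = 35), in 26 of 35 hashtags (log2 difference 0.13, adjusted p = 0.0249), and line cells exceeded fibroblasts, at 257 ± 71.0 (SD, n = 26), in 21 of 26 (log2 difference 0.35, adjusted p = 0.00304), all by paired permutation tests. From fibroblasts down to CD8 T cells at 164 ± 82.3 (SD, n = 16) no neighbouring pair that shared hashtags differed beyond its spread. With a gate of 4 markers neither macrophages over line cells (0.11, adjusted p = 0.0959) nor line cells over fibroblasts (0.22, adjusted p = 0.34) passed.

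Group differences in Cd44 were small. In line cells controls ran from 229 over 341 to 415 CPM and KO hashtags from 248 over 297 to 373 CPM. The KO over control ratio was 0.816 at day 6, 0.778 at day 10 and 1.15 at day 16. The test of the change from day 6 to day 16 did not pass (log2 difference 0.57, SE 0.16, adjusted p = 0.0804 by edgeR). Over all days the log2 KO/control ratio was -0.19 (SE 0.08, adjusted p = 0.0372 by edgeR), and it did not pass without line 18 (-0.11, adjusted p = 0.2715), line 19 (-0.17, adjusted p = 0.0971) or line 24 (-0.23, adjusted p = 0.0599), or without day 0 (-0.11, adjusted p = 0.199). Macrophages (0.07, SE 0.09, adjusted p = 0.594 by edgeR), monocytes (-0.10, SE 0.11, adjusted p = 0.565), T cells (-0.10, SE 0.17, adjusted p = 0.792) and fibroblasts (0.33, SE 0.14, adjusted p = 0.108) did not pass.

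In macrophages the course of Cd44 over time differed between control and KO tumours. At day 6 the control hashtags had 295, 376 and 555 CPM (line 15) and 451, 461 and 506 CPM (line 18), and at day 16 they had 234, 239 and 298 CPM and 230, 260 and 312 CPM. The KO hashtags had 307 to 464 CPM at day 6 and 251 to 420 CPM at day 16. Day 16 lay below day 6 by a log2 difference of -0.41 (SE 0.11, adjusted p = 0.0149 by edgeR) over both groups, which did not pass without line 15 (-0.32, adjusted p = 0.207) or line 18 (-0.25, adjusted p = 0.295). The KO over control ratio went from 0.849 at day 6 to 1.36 at day 16, and the test of that change passed (log2 difference 0.73, SE 0.18, adjusted p = 0.0324 by edgeR), where 0.988% of macrophage genes passed it. It did not pass without line 18 (0.62, adjusted p = 0.34), line 19 (0.74, adjusted p = 0.245) or line 24 (0.82, adjusted p = 0.117).

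**Figure D3:**
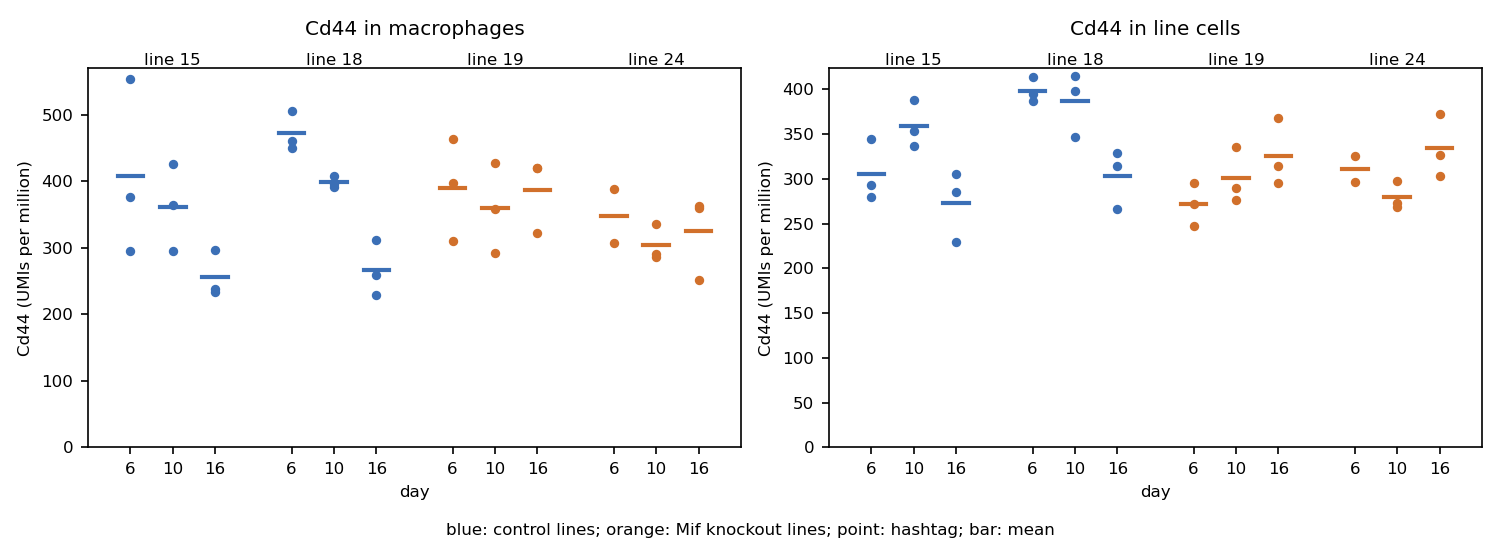
Cd44 in macrophages (left) and line cells (right), in CPM on axes that start at 0, by line and day, with a point per hashtag and a bar for the mean (blue control, orange KO). Control macrophages go from 440 CPM at day 6 to 262 CPM at day 16, and KO macrophages from 374 to 356 CPM.

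Cd44 in line cells was at the low end at day 0. Day 0 hashtags had 98.1 to 268 CPM (n = 7) and those of days 6 to 16 had 229 to 415 CPM (n = 35), and the one above 172 CPM at day 0 was that of line 18. Ackr3 had the same course, at 1.14 to 9.90 CPM on day 0 against 6.85 to 33.5 CPM afterwards. These are descriptions, since the comparison of day 0 with later days was not among the tests.

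Cxcr2, the neutrophil receptor for Cxcl1 and Cxcl2, was nearly limited to neutrophils at this depth. The neutrophil hashtags, all from control tumours, had 147, 334 and 119 CPM (9, 11 and 6 UMIs) at day 6 and 235.5 CPM (7 UMIs) at day 10 in line 15, and 53.25 CPM (2 UMIs) at day 10 in line 18. Pooled over all hashtags, 347 neutrophils had 117 CPM (95% Poisson interval 92.3 to 147), although their median depth was the lowest of the classes, at 750 UMIs. Line cells had 15 Cxcr2 UMIs in 57558 cells, or 0.0359 CPM (0.0201 to 0.0593). Macrophages, monocytes and T cells had 1 UMI each. No UMI was seen in 1011 fibroblasts, which allows a level of up to 0.335 CPM (3 UMIs). Cxcr2 passed the filter of no fit, so KO and control were not compared.

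Cxcr4 was highest in neutrophils, macrophages and monocytes. Neutrophils had 88.0 CPM ± 25.0 (SD, n = 5), macrophages 72.4 ± 25.3 (SD, n = 35) and monocytes 64.8 ± 41.1 (SD, n = 31), and none of these neighbours differed beyond the spread (macrophages against monocytes: log2 difference 0.36, adjusted p = 0.087, paired permutation test). NK cells had 44.7 CPM ± 51.3 (SD, n = 9), conventional CD4 T cells 43.4 ± 35.2 (SD, n = 9) and CD8 T cells 34.8 ± 20.1 (SD, n = 16). Line cells had 1.93 CPM ± 2.27 (SD, n = 35) and fibroblasts 0.289 ± 1.02 (SD, n = 26), from 2 UMIs. Endothelial cells with Pecam1 or Cdh5 had 28.1 CPM ± 20.9 (SD, n = 4, 17 UMIs) in controls and 4.22 ± 4.79 (SD, n = 8, 15 UMIs) in line 19, the KO line with enough such cells. The wide gate had 13.3 ± 11.6 (SD, n = 12) in controls and 1.89 ± 1.88 (SD, n = 15) in KO tumours. Lower levels in KO are the opposite order to that of T cells and monocytes given next. These classes were below the filter of the fit, so this was not tested, nor was the part of line-cell RNA in the endothelial classes. At 1000 UMIs per cell a Cxcr4 UMI was seen in 7.78% ± 2.98 (SD, n = 35) of macrophages, 3.38% ± 2.50 (SD, n = 30) of T cells of median depth 1682 UMIs, and 0.142% ± 0.726 (SD, n = 26) of fibroblasts.

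T cells of both KO lines had more Cxcr4 than those of the control lines on average over days 6 to 16. At day 10 line 19 had 19.3 CPM ± 14.6 (SD, n = 3), against 22.8 ± 6.55 (SD, n = 2) in line 15 and 6.95 ± 9.83 (SD, n = 2) in line 18. At day 6 the means were 54.4 CPM ± 22.3 (SD, n = 5) in KO and 11.5 ± 2.36 (SD, n = 4) in control tumours, and at days 10 and 16 the groups overlapped. Control hashtags ran from 0 over 15.0 to 31.3 CPM (n = 13, 27 UMIs in all), and KO hashtags from 4.63 over 45.7 to 78.8 CPM (n = 17, 364 UMIs). By line the means were 17.3 CPM ± 7.12 (SD, n = 7) in line 15, 14.3 ± 10.9 (SD, n = 6) in line 18, 32.5 ± 16.7 (SD, n = 9) in line 19 and 57.8 ± 14.6 (SD, n = 8) in line 24. The gene was too low in T cells for the filter of the fit. Without that filter the log2 KO/control ratio was 1.55 by edgeR, which at 27 UMIs in the control hashtags is given as a description. Where fewer hashtags or other sums let it into the fit it did not pass: 1.46 (adjusted p = 0.0666) without line 15, 1.40 (adjusted p = 0.101) without line 18 and 1.39 (adjusted p = 0.501) with 1 sum per line. Macrophage markers in T cells summed to 0 to 499 CPM in controls and 17.1 to 223 CPM in KO hashtags. T cells with no macrophage-marker UMI had 16.5 CPM ± 8.72 (SD, n = 12) in controls and 40.6 ± 17.5 (SD, n = 17) in KO tumours. Monocytes, also below the filter, had 47.2 CPM ± 20.6 (SD, n = 16) in controls and 83.6 ± 49.3 (SD, n = 15) in KO tumours, where line 24 had 100.8 ± 38.8 (SD, n = 8) and line 19 had 64.0 ± 55.5 (SD, n = 7). T-cell markers in monocytes differed in the same direction, as given with their Cd74, and their part in this was not tested.

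Macrophages carried most of the Cxcr4 UMIs, and there the test of the groups did not pass. Controls ran from 26.5 over 77.3 to 168 CPM and KO hashtags from 39.5 over 67.9 to 88.7 CPM, with a log2 KO/control ratio of -0.07 (SE 0.15, adjusted p = 0.734 by edgeR) whose sign depended on the setting. Line cells of line 24 had 5.49 CPM ± 2.01 (SD, n = 8) of Cxcr4, and lines 15, 18 and 19 had 0.955 ± 1.24, 1.08 ± 0.383 and 0.598 ± 0.388 (SD, n = 9 each). The fit gave a log2 KO/control ratio of 1.50 (SE 0.46, adjusted p = 0.00669 by edgeR), which turned to -0.58 (adjusted p = 0.241) without line 24. Of the 521 Cxcr4 UMIs of line cells, 246 lay in cells with no macrophage-marker UMI. Those cells had 0.267, 0.590 and 0.326 CPM in lines 15, 18 and 19 and 3.69 ± 1.24 (SD, n = 8) in line 24, or 0.428 ± 0.297 (SD, n = 18) in controls and 1.91 ± 1.92 (SD, n = 17) in KO hashtags, below the filter of the fit. Line 24 had the macrophage markers at 0.949% to 2.84% of their macrophage level, and their part in its Cxcr4 was not tested. Day 0 hashtags of lines 15, 18 and 19 had no Cxcr4 UMI, and those of line 24 had 8 and 3.

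Ackr3, the scavenger of Cxcl12, was highest in fibroblasts. Fibroblasts had 61.9 CPM ± 37.4 (SD, n = 26), above the endothelial gate, at 27.9 ± 16 (SD, n = 27), in 19 of 22 hashtags (log2 difference 1.10, adjusted p = 0.00614, paired permutation test). Endothelial cells with Pecam1 or Cdh5 had 35.2 CPM ± 26.0 (SD, n = 12). Line cells, at 23.0 ± 6.83 (SD, n = 35), did not differ from the endothelial gate beyond the spread (log2 difference 0.17, adjusted p = 0.373). Monocytes had 12.1 CPM ± 10.8 (SD, n = 31), macrophages 6.98 ± 4.01 (SD, n = 35) and T cells 5.68 ± 7.02 (SD, n = 30). At 1000 UMIs per cell Ackr3 was seen in 6.10% ± 6.97 (SD, n = 26) of fibroblasts and 0.282% ± 0.827 (SD, n = 30) of T cells. Over 12 classes the mean levels of Cxcr4 and Ackr3, as log2(CPM + 1), had a Pearson r of -0.745, which is a description over classes that share libraries.

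Ackr3 was lower in KO line cells, in both lines. Controls ran from 16.7 over 27.8 to 33.5 CPM (n = 18) and KO hashtags from 6.85 over 19.2 to 31.3 CPM (n = 17). The line means were 25.3 CPM ± 4.27 (SD, n = 9) in line 15, 28.3 ± 5.20 (SD, n = 9) in line 18, 17.4 ± 7.16 (SD, n = 9) in line 19 and 20.7 ± 5.24 (SD, n = 8) in line 24. The log2 KO/control ratio was -0.58 (SE 0.12, adjusted p = 0.000172 by edgeR), and between -0.43 and -0.71 with a line left out. With library as a term it was -0.23 (adjusted p = 0.502), and in the mixed libraries alone -0.17 (adjusted p = 0.699): there line 24 had 24.7 CPM ± 6.31 (SD, n = 3) and line 19 had 16.7 ± 5.77 (SD, n = 3), against 24.6 ± 7.37 (SD, n = 3) in line 18 and 21.6 ± 2.15 (SD, n = 3) in line 15. Library and line cannot be told apart outside the mixed libraries.

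Ackr3 in line cells rose from day 6 to day 16. Control means were 23.5 CPM ± 4.22 (SD, n = 6) and 28.7 ± 4.64 (SD, n = 6), and KO means 11.9 ± 4.88 (SD, n = 5) and 23.5 ± 5.09 (SD, n = 6). Line 19 was lowest at day 6, with 8.75, 6.85 and 10.1 CPM. The log2 difference was 0.58 (SE 0.16, adjusted p = 0.0091 by edgeR, where 21.9% of genes passed), and 0.29 (adjusted p = 0.15) without line 19. The KO difference at day 16 minus that at day 6 was 0.85 (SE 0.29, adjusted p = 0.172).

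**Figure D4:**
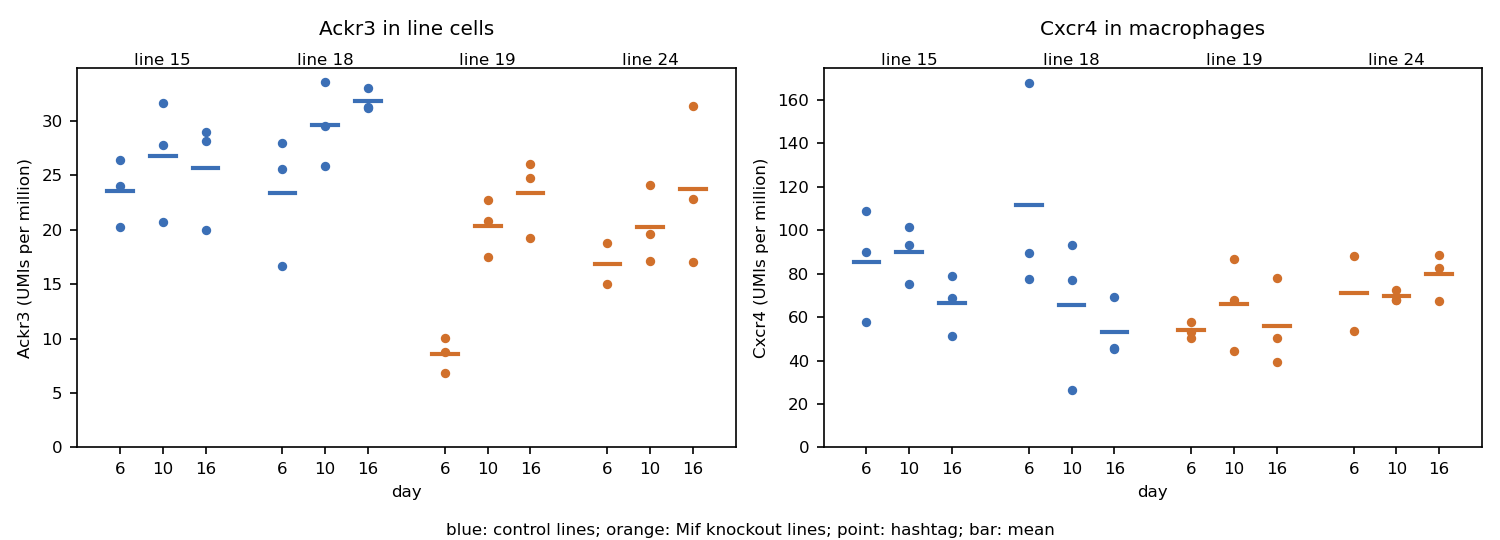
Ackr3 in line cells (left) and Cxcr4 in macrophages (right), in CPM on axes that start at 0, by line and day, with a point per hashtag and a bar for the mean (blue control, orange KO). Line 19 at day 6 has the lowest Ackr3, at 6.85 to 10.1 CPM, and Cxcr4 in macrophages overlaps between the groups.

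Ackr3 in fibroblasts and endothelial cells did not pass. Fibroblasts had 73.2 CPM ± 33.8 (SD, n = 14) in controls and 48.8 ± 38.6 (SD, n = 12) in KO tumours (log2 fold change -0.55, SE 0.30, adjusted p = 0.224 by edgeR, where 16.2% of genes passed), and with no filter on low counts the difference did pass (-0.58, adjusted p = 0.017). Endothelial cells with Pecam1 or Cdh5 had 53.6 ± 38.0 (SD, n = 4) in controls and 26.0 ± 12.2 (SD, n = 8) in line 19, the KO line with enough such cells. The log2 KO/control ratio was -0.80 (SE 0.45, adjusted p = 0.304 by edgeR). Monocytes, below the filter of the fit, had 17.6 ± 11.8 (SD, n = 16) and 6.22 ± 5.69 (SD, n = 15), from 47 and 33 UMIs.

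**Figure D5:**
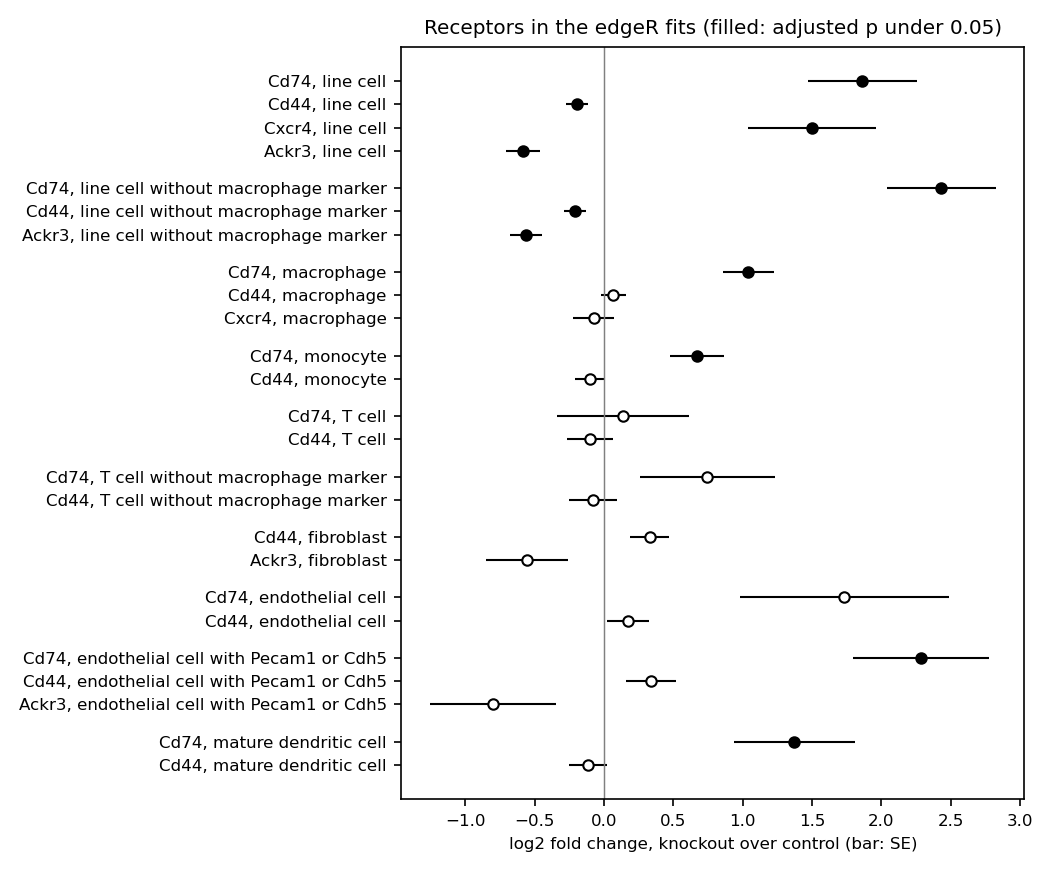
Log2 fold changes of KO over control for each receptor that passed the filter of the edgeR fit in the classes shown (CD8 T cells are not drawn), with bars for the SE; filled points have an adjusted p under 0.05. Cd74 passes, to the right of 0, in line cells, macrophages, monocytes, the narrowed endothelial class and the mature dendritic cell gate, and not in the wide endothelial gate. In the narrowed endothelial class the point rests on 16 Cd74 UMIs in control hashtags against 494 in KO hashtags, and is a description. In line cells Cxcr4 also passes to the right, and Cd44 and Ackr3 pass to the left.

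Receptors of the Mif complex were also looked for in the same cell. At 1000 UMIs per cell, Cd74 and Cd44 UMIs occurred together in 24.1% ± 8.73 (SD, n = 30) of monocytes, 20.7% ± 6.87 (SD, n = 35) of macrophages, 2.66% ± 3.27 (SD, n = 35) of line cells and 1.10% ± 2.52 (SD, n = 26) of fibroblasts. Cd74 and Cxcr4 occurred together in 6.39% ± 4.94 (SD, n = 30) of monocytes and 5.18% ± 2.46 (SD, n = 35) of macrophages. They did so in 0 of 1011 fibroblasts, of which 1 had a Cxcr4 UMI. Taken singly, Cd74 and Cd44 were seen in 65.1% and 40.4% of monocytes, 69.5% and 29.3% of macrophages, and 9.47% and 26.9% of line cells. Whether the receptors occurred together more often than their single shares give was not tested. At this depth the absence of a UMI does not show that a cell lacks the RNA.

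Mif and Ddt were also read in host classes. Mif was lower in KO tumours in macrophages (log2 fold change -0.51, SE 0.10, adjusted p = 0.000242 by edgeR), monocytes (-0.44, SE 0.15, adjusted p = 0.0352) and T cells (-0.51, SE 0.12, adjusted p = 0.0105), whose own Mif gene the labels do not describe as altered. It did not pass in fibroblasts (0.16, SE 0.12, adjusted p = 0.413) or CD8 T cells (-0.38, SE 0.28, adjusted p = 0.644). Whether RNA carried over from line cells has a part in these differences was not tested. Ddt, the homologue of Mif that also binds Cd74, was lower in KO macrophages (-0.37, SE 0.12, adjusted p = 0.016) and lay beside the threshold in line cells (-0.12, SE 0.05, adjusted p = 0.0547; -0.14, SE 0.06, adjusted p = 0.0454 in those without a macrophage marker), and did not pass in T cells (-0.27, SE 0.17, adjusted p = 0.375).

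A list of 31 further genes of the pathway (ligands, MHC class II partners and proteases of Cd74, hyaluronan synthases and linkers of Cd44, and signalling genes) was counted in each class, Mif and Ddt included. In macrophages 23 were tested, 9 were higher and 5 lower in KO tumours (18.6% and 17.2% of all genes), with a median log2 fold change of 0.135 against 0.00329 over all genes. Those with the largest differences were the class II chains H2-Ab1 (1.33, SE 0.21), H2-Eb1 (1.32, SE 0.21) and H2-Aa (1.26, SE 0.19) and the peptide loader H2-DMa (1.08, SE 0.16). In monocytes 17 were tested, 5 were higher and 2 lower (9.77% and 10.6% of all genes), with a median of 0.212 against -0.00867, led by H2-Eb1 (1.04, SE 0.24) and H2-Aa (0.93, SE 0.22). In line cells 26 were tested, 14 were higher and 5 lower (28.1% and 23.1% of all genes), with a median of 0.325 against 0.0231. The higher members were led by the chemokine Cxcl12 (1.83, SE 0.56), then H2-Aa (1.54, SE 0.43), H2-Eb1 (1.51, SE 0.44) and H2-Ab1 (1.50, SE 0.41).

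These line-cell genes were high in line 24 alone. Cxcl12 was 62.7 CPM ± 21.9 (SD, n = 8) there and 11.2 ± 6.88, 7.01 ± 3.97 and 2.07 ± 1.36 (SD, n = 9 each) in lines 15, 18 and 19, and H2-Aa was 175.5 ± 91.8 (SD, n = 8) against 32.7 ± 21.2, 41.0 ± 28.1 and 25.4 ± 18.2 (SD, n = 9 each). Without line 24 Cxcl12 passed in the other direction (-2.05, adjusted p = 3.2e-06 by edgeR), and H2-Aa (-0.52, adjusted p = 0.204), H2-Eb1 (-0.61, adjusted p = 0.133) and H2-Ab1 (-0.42, adjusted p = 0.301) turned and did not pass. Without line 15 the 3 class II chains did not pass (1.23 to 1.29), nor did Cxcl12 without line 18 (1.46, adjusted p = 0.123), and with library as a term none of the 4 did (0.34 to 0.46). The macrophage markers had a median of 0.371% of their macrophage level in control line cells, 0.652% in KO ones and 1.20% in line 24, and their part in the class II difference was not tested. In line cells with no macrophage-marker UMI H2-Aa was 108 ± 55.9 (SD, n = 8) in line 24 and 12.3 to 21.9 CPM on average in the other lines. In macrophages the 4 named class II genes passed whichever line was left out (0.86 to 1.72), and in monocytes H2-Eb1 (0.55, adjusted p = 0.277) and H2-Aa (0.60, adjusted p = 0.227) did not pass without line 24.

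Fewer members passed elsewhere. In T cells 15 were tested, 1 higher and 2 lower (3.52% and 4.11% of all genes), with the Cxcr2 ligand Cxcl1 higher (1.75, SE 0.42, adjusted p = 0.0101 by edgeR), and the arrestin gene Arrb2 (-0.77, SE 0.21, adjusted p = 0.0165) and Mif lower, where 7.64% of all genes passed. Cxcl1 did not pass without line 24 (0.89, adjusted p = 0.276) or line 15 (1.27, adjusted p = 0.185), nor Arrb2 without line 15 (-0.85, adjusted p = 0.0583) or line 18 (-0.63, adjusted p = 0.132). In fibroblasts 13 were tested, 3 higher and 1 lower (8.9% and 7.33% of all genes), with the hyaluronan synthase Has1 (1.91, SE 0.27), Sppl2a, the protease that clears the Cd74 stub (0.75, SE 0.19), and the Cd44 ligand Spp1 (0.74, SE 0.20) higher and the linker Ezr lower (-1.12, SE 0.21). Of these, Sppl2a did not pass without line 15 (0.68, adjusted p = 0.178) and Spp1 not without line 18 (0.48, adjusted p = 0.157). Between day 6 and day 16, 6 of 26 members passed in line cells (21.9% of all genes), with Spp1 higher (1.06, SE 0.15) and Cxcl5 lower (-1.82, SE 0.49) at day 16, and 2 of 23 passed in macrophages (9.88% of all genes), both counts near those shares.

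The genes most like each receptor over the 12 classes were found by the Pearson r of log2(mean CPM + 1), a description with no p. For Cd74 they were H2-Eb1 (r = 0.985), H2-Aa (0.984) and H2-Ab1 (0.96). For Cxcr2, with a single class well above 0, they were Il1f9 (0.999), Mrgpra2b (0.999) and Csta3 (0.999), all highest in neutrophils. Cd44 had AI839979 (0.947), Ninj1 (0.939) and Ifi204 (0.935), Cxcr4 had Gmfg (0.969), Psenen (0.966) and Atp8a1 (0.949), and Ackr3 had Angptl4 (0.985), Mtch1 (0.983) and Ikbip (0.983), each highest in fibroblasts.

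The WT hashtags, 1 each at days 6, 10 and 16 in a single mixed library, are given as values only. Their macrophages had 5426, 6914 and 11870 CPM of Cd74, all within the KO range. The values of 5426 and 6914 CPM also lay within the control range of 2343 to 9453 CPM, and the last was above every control hashtag. Their line cells had 91.3, 58.3 and 99.2 CPM of Cd74, as in lines 15, 18 and 19, and 15.8, 20.8 and 22.8 CPM of Ackr3. This WT mean of Ackr3, 19.8 CPM, lay nearer the KO mean of 19.0 than the control mean of 26.8 CPM. T cells of the WT tumours had 35.7 CPM ± 19.5 (SD, n = 3) of Cxcr4 and macrophages 85.0 ± 9.70 (SD, n = 3). The T-cell values ran from 18.3 over 32.0 to 56.8 CPM, and the highest control hashtag had 31.3 CPM.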

How the data were processed

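Counts were deposited as 10x matrices of raw UMI counts per gene and hashtag antibody; per the submitters' processing notes the authors used Cell Ranger 6.0.0 and mm10. Cells under 300 genes or over 15% mitochondrial counts were dropped and the rest assigned to hashtags with HTODemux (Seurat 5.3.0), which also removed doublets with 2 hashtags. Classes needed at least 3 distinct markers. Counts were summed per hashtag and class (at least 20 cells) and compared with edgeR 4.0.16 (TMM, filterByExpr, quasi-likelihood test, terms for day and for group, Benjamini-Hochberg adjustment over all genes tested, threshold 0.05). Between neighbouring classes log2(CPM + 1) was compared within hashtags by 2-sided paired permutation tests, exact or with 100000 resamples. The p-values measure the spread between hashtags, which may be technical; 37 pairs of hashtags of the same line and day differed by a chi-square of 1.73 to 38.5 per degree of freedom, so none was taken as a repeat. Intervals are exact Poisson and cover counting error only. On simulated counts with 200 genes changed by a log2 fold of 1, 92% were recovered in line cells, 92.5% in macrophages, 90% in monocytes, 77.5% in T cells, 34% in CD8 T cells and 90% in fibroblasts. At most 5.64% of the calls of a class were unchanged genes. The simulated counts had no line, library or day effect, so they cannot show how the nesting of line in group acts on the calls. Members and lists were chosen with earlier results of these data known; named pathway genes are the passing members with the 4 largest changes per class, and Mif and Ddt. Alternatives were RLE scaling, no filter, each line left out, 1 sum per line, mixed libraries alone, library as a term, other gates, cell filters and hashtag calls, and DESeq2 1.42.0. Narrowed classes were chosen after seeing the data.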

Additional observations from a re-analysis of the deposited data

Results flagged for a closer look

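Of 87 groups of hashtags, 11 had a highest or lowest hashtag far from the others, and chance gives about 1 in 20 such groups. For Cd74 these were 278.2 CPM in line cells and 9453 CPM in macrophages of the same line 18 day 10 hashtag, where Cxcr4 in macrophages was also low at 26.45 CPM. Further Cd74 values were 6029 CPM in macrophages of a line 15 day 6 hashtag, 2837 CPM in the T cells of a line 18 day 10 hashtag with 21 such cells, 2376 CPM in neutrophils of a line 15 day 6 hashtag with 31 such cells, and 4696 CPM, the lowest value, in mature dendritic cells with Ccr7 of a line 24 day 16 hashtag. For Cxcr4 they were 4.101 CPM in line cells of a line 15 day 6 hashtag, 0 CPM in line cells of a line 15 day 16 hashtag, and 88.21 CPM in macrophages of a line 24 day 6 hashtag. Ackr3 in line cells was low, at 19.95 CPM, in a line 15 day 16 hashtag.

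The KO difference of Cd44 in macrophages changed between day 6 and day 16 by 0.73 on the log2 scale, by the edgeR interaction test. Cells that fell into no class held 67552 Cd74 UMIs, 5061 Cd44 UMIs, 454 Cxcr4 UMIs and 265 Ackr3 UMIs, which enter none of the comparisons.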

How the results depend on the processing

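Each line stands for part of a group of 2, and 4 libraries hold 1 line each, so line, library and group are only partly separable; low counts limit Cxcr2 in every class, Cxcr4 in T cells and Ackr3 in leukocytes. Of 353 alternative values, 185 of KO against control, 38 of day, 3 of the change in the KO difference and 29 of neighbouring classes kept their direction and their side of the threshold. Of KO against control 20 turned, 39 no longer passed and 12 newly passed; of day 11 and of the change in the KO difference 3 no longer passed; of neighbouring classes 5 turned and 8 no longer passed. No paired analysis was possible because the lines of the groups share no replicate numbers; the mixed libraries, which hold lines of both groups, are instead compared with library as a term and alone. The causes of the changes below were not tested. All values are log2 differences.

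With 1 sum per line no receptor passed: Cd74, Cd44, Cxcr4 and Ackr3 in line cells were 1.40, -0.27, 1.15 and -0.67, Cd74 was 1.19 in macrophages and 0.56 in monocytes, and Cxcr4 in macrophages turned to 0.0344. With library as a term the line-cell values were 0.79, -0.0049, 0.42 and -0.23, Cd74 was 0.85 in macrophages, 0.73 in monocytes and, with the sign turned, -0.69 in T cells and -0.25 in mature dendritic cells, and Cd44 in T cells was 0.0063. In the mixed libraries alone the line-cell values were 1.20, -0.0080, 0.93 and -0.17, Cd74 was 0.84 in monocytes and -0.69 in T cells, Cd44 in T cells was 0.20, and the day differences were 0.53 for Ackr3 in line cells and 0.62 for Cd74 and -0.51 for Cd44 in macrophages.

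With a gate of 4 markers Cxcr4 in macrophages was 0.0401 and Cd74 in monocytes 0.58; between classes, Cd74 was 0.47 for macrophages over monocytes and -1.38 for monocytes over mature dendritic cells, Cd44 was 0.11 for macrophages over line cells and 0.22 for line cells over fibroblasts, and Cxcr4 was 1.62 for line cells over fibroblasts. With gates on thinned cells Cxcr4 was 0.90 in line cells and 0.11 in macrophages, Cd74 0.50 in monocytes, Cd44 0.15 in T cells, the day difference of Cd74 in macrophages 0.61, and the first 3 class differences 0.0794, -0.90 and 0.13. With the other hashtag call Cxcr4 in line cells was 0.77, Cd44 -0.0599 in macrophages and 0.28 in fibroblasts (now past the threshold), and Cd74 0.47 in monocytes; Cd74 was 0.0414 for macrophages over monocytes, 0.40 for line cells over NK cells and 1.21 for endothelial cells over fibroblasts, and Cd44 0.0541 for macrophages over line cells. Without cells of high UMI count Cd74 was 0.43 in monocytes, 0.69 for day in macrophages and 0.50 for line cells over NK cells. With at least 50 cells Cd74 in monocytes was 0.44, without day 0 Cd44 in line cells was -0.11, and with no filter Cd44 in T cells was 0.0335 and Ackr3 in fibroblasts -0.58 (past the threshold).

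Leaving out each line in turn gave, in line cells, 0.20 to 2.73 for Cd74, -0.32 to -0.11 for Cd44 and -0.58 to 2.58 for Cxcr4. In macrophages it gave -0.0020 to 0.15 for Cd44 and -0.30 to 0.15 for Cxcr4, in monocytes 0.40 to 0.92 for Cd74 and -0.17 to 0.0132 for Cd44, in T cells -0.21 to 0.41 for Cd74 and -0.33 to 0.18 for Cd44, and in fibroblasts -0.21 to 0.51 for Cd44. The day differences ran from 0.29 to 0.77 for Ackr3 in line cells and, in macrophages, from 0.45 to 0.86 for Cd74 and from -0.57 to -0.25 for Cd44, whose change in the KO difference ran from 0.62 to 0.83.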
